A study of Rattus norvegicus with 16 samples.

Results

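The comparison asked how the mRNA content of the distal sciatic nerve stump, 7 d after the nerve was cut, differed from that of the intact nerve of the other leg. It was chosen by array title: 4 arrays of injured nerve and 4 arrays of contralateral uninjured nerve, both collected at 7 days post injury (DPI), which are 8 of the 16 arrays in the series. All 18166 genes with a single annotated symbol were included, each read from its brightest probe set over the 16 arrays. The nerves came from male Sprague Dawley rats 6 weeks of age, and neither group carried a transgene. Per the study's methods, operated animals were anaesthetised with isoflurane and given buprenorphine and an anti-inflammatory drug, ketoprofen or meloxicam, so both nerves of an animal were exposed to these drugs. In the operated hindlimb a piece of the sciatic nerve was resected and the distal end was tucked away, so that axons would not grow back into it, and the injured tissue is therefore a degenerating nerve without intended reinnervation. The contralateral nerve is intact, but it comes from an operated animal and is not a nerve of an untouched rat. Total RNA of each nerve was hybridised to its own Rat Gene 2.0 ST array, and the labels call the 4 arrays of a group biological replicates without tying them to particular animals.

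When a peripheral axon is cut, the part beyond the cut degenerates and the myelinating Schwann cells around it lose their myelin. Those Schwann cells leave the myelinating state, divide and take on a repair state driven in large part by the transcription factor Jun, in which they secrete growth factors and break down their own myelin. Macrophages enter the stump and take up the lipid-rich debris, while fibroblasts and other mesenchymal cells lay down matrix. Bulk tissue mixes all of these cells, so fewer cells of a type and less RNA per cell cannot be told apart in any value below.

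Values are the log2 scale of the RMA method, so a difference of 1 is a 2-fold change. A gene was called when its Benjamini-Hochberg adjusted p was under 0.05 in limma and its change was at least 2-fold, and "rose" and "fell" are used only of called genes. Within a group the arrays correlated at 0.982 to 0.988, no arrays were duplicates, and the median SD over 4 arrays was 0.13 in each group. Some arrays stood apart for markers of other tissues, and the levels are given as the mean of a marker list on an array minus its mean over the 8 arrays. Skeletal muscle markers stood at 1.98 on injured array 1 and between -0.60 and 0.37 on the other 7. Interferon response genes stood at 1.27 on injured array 4 and 0.44 on injured array 1, against -0.53 to -0.10 on the contralateral arrays. Adipocyte markers stood at 0.83 and 0.72 on contralateral arrays 1 and 2 and at -0.05 on contralateral array 4. As a check of the tissue, Sox10, the transcription factor that defines the Schwann cell lineage, read 8.63, 8.46, 8.22 and 8.23 on the contralateral arrays and 8.46, 8.82, 8.67 and 8.72 on the injured arrays. Sox10 does not stand for the whole list of 8 measured Schwann cell markers. The mean of that list ran from 0.277 to 0.416 on the contralateral arrays and from -0.515 to -0.252 on the injured arrays.

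**Figure D1:**
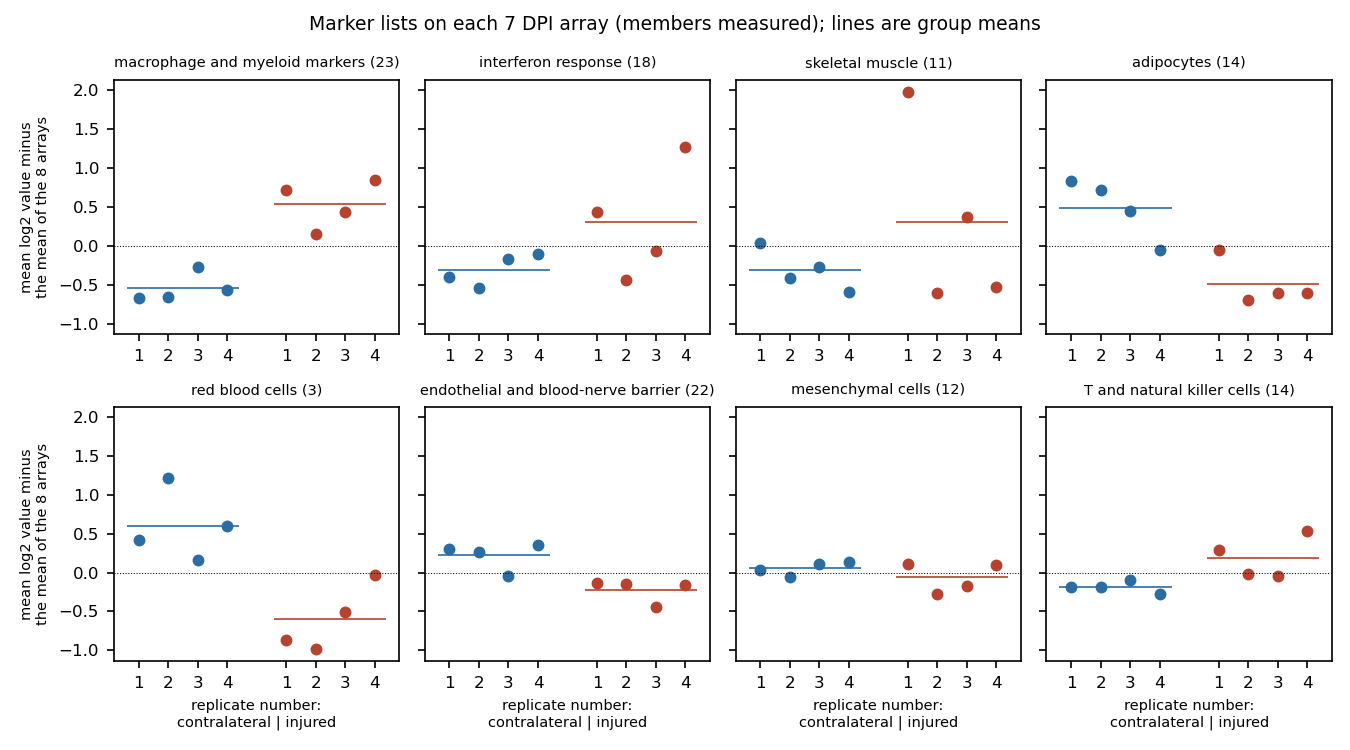
Mean level of 8 marker lists on each 7 DPI array (vertical axis, mean log2 value of the measured members minus their mean over the 8 arrays), with the array's replicate number on the horizontal axis, contralateral arrays in blue, injured arrays in red and lines at the group means. Skeletal muscle markers reach 1.98 on injured array 1 and interferon genes 1.27 on injured array 4, while macrophage markers are higher on every injured array than on any contralateral array.

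At 7 DPI 451 genes rose and 395 fell, 2.48% and 2.17% of the genes tested and 4.66% together. These shares are the background for each count of list members below. Of these, 438 that rose and 389 that fell had arrays that did not overlap between the groups, against 31.7% of all genes. Decreases reached further than increases: 92 genes fell and 56 rose by at least 4-fold, and 30 fell and 8 rose by at least 8-fold. Without the fold minimum 3477 genes were higher and 2356 lower at an adjusted p under 0.05, so most shifts were smaller than 2-fold. The same 688 genes, 357 higher and 331 lower, were called in the fit of all 16 arrays and in each of 16 alternative fits over all genes with the same threshold, which include 8 fits that leave out 1 array but none that leaves out a pair of arrays.

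**Figure D2:**
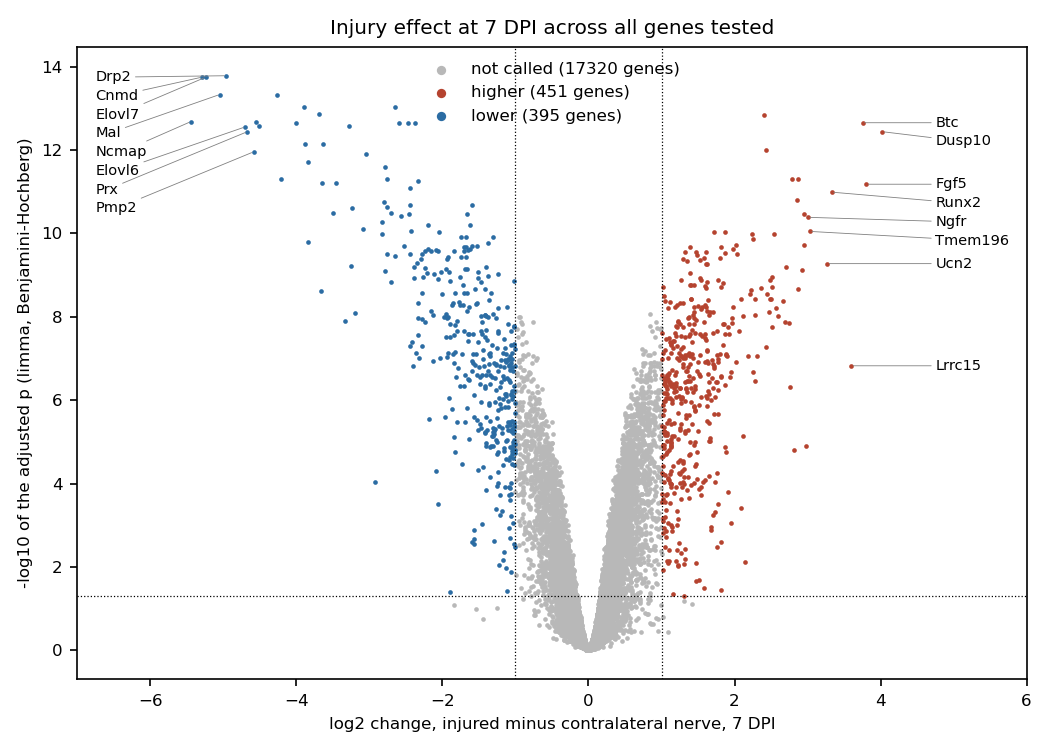
Each point is 1 of 18166 genes, with its log2 change at 7 DPI (injured minus contralateral, 4 arrays each) on the horizontal axis and −log10 of its adjusted p on the vertical axis. Dotted lines mark the 2-fold change and the adjusted p of 0.05, and the 8 largest called changes in each direction are named; the 451 genes that rose are red and the 395 that fell are blue.

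The largest increase belonged to Dusp10, a phosphatase that inactivates the stress-activated MAP kinases JNK and p38. Dusp10 read 7.56, 7.11, 7.50 and 7.07 on the contralateral arrays and 11.08, 11.51, 11.32 and 11.43 on the injured arrays. Its log2 change was 4.02 ± 0.12 (SE, 16.3-fold, adjusted p = 3.62e-13), and the groups were far apart. Fgf5, a fibroblast growth factor, read 6.61, 5.79, 6.23 and 5.88 in contralateral and 9.98, 10.05, 10.10 and 9.61 in injured nerves (14-fold, adjusted p = 6.58e-12). Btc encodes betacellulin, a ligand of the EGF receptor family, and read 6.28, 6.00, 6.17 and 6.26 in contralateral and 9.72, 9.84, 9.91 and 10.25 in injured nerves (13.5-fold, adjusted p = 2.20e-13). In both of these genes every injured array lay above every contralateral array.

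Next in order of size came Lrrc15, a membrane protein of activated fibroblasts (3.60 ± 0.31), Runx2, a Runt transcription factor best known from bone (3.33 ± 0.13), and Ucn2, a peptide of the corticotropin-releasing hormone family (3.27 ± 0.18). Tmem196 (3.03), Ngfr (3.00), the p75 neurotrophin receptor, and Ly49si1 (2.97), a gene of the natural killer receptor cluster, followed. Ly49si1 belongs to a family of near-identical genes, so its probes may read its relatives too. The rest of the 15 largest increases were Sema3e (2.96), a secreted semaphorin, Rgs16 (2.95), a regulator of G protein signalling, Atf3 (2.87), an injury-induced transcription factor, Gpnmb (2.87), a glycoprotein of lipid-loaded macrophages, Abcb4 (2.86), a phospholipid transporter, and Cthrc1 (2.81), a secreted protein of matrix-forming cells. All 15 kept their call in all 16 alternative fits.

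The 15 largest decreases were led by genes of the myelin sheath and of lipid synthesis. Ncmap, a myelin protein of the non-compact sheath, read 12.72, 12.58, 12.55 and 12.57 in contralateral and 6.93, 7.24, 7.44 and 7.05 in injured nerves (43.5-fold lower, adjusted p = 2.07e-13). Cnmd, which encodes the matrix protein chondromodulin, read 11.66, 11.53, 11.45 and 11.60 in contralateral and 6.09, 6.37, 6.38 and 6.23 in injured nerves (39.2-fold lower, adjusted p = 1.78e-14). Elovl7, an enzyme that lengthens fatty acids, read 11.37, 11.24, 11.09 and 11.10 in contralateral and 5.80, 6.22, 5.76 and 6.06 in injured nerves (37.8-fold lower, adjusted p = 1.78e-14). In each of these genes the lowest contralateral array stood more than 4 log2 units above the highest injured array. The others in order were Mal, Drp2, Elovl6, Prx, Pmp2, Slc36a2, Cldn19, Dusp15, Vsnl1, Svip, Idi1 and Kcnk1, with log2 changes from -5.05 to -3.89. Slc36a2 is an amino acid transporter, Vsnl1 a neuronal calcium sensor and Svip a small inhibitor of endoplasmic reticulum-associated degradation. All 15 decreases kept their call in all 16 alternative fits.

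Myelin genes fell almost as a block. Compact myelin is the stacked membrane that insulates the axon, and 5 of its 6 measured genes fell, with a median log2 change of -1.93 beside -0.0038 over all genes. Mal, a lipid raft proteolipid, fell by 5.05 ± 0.12 and Pmp2, the fatty acid binding protein of peripheral myelin, by 4.59 ± 0.15 on the log2 scale. Mbp, myelin basic protein, fell less: it read 12.67, 12.93, 12.66 and 12.73 in contralateral and 10.12, 10.65, 10.76 and 10.67 in injured nerves (4.59-fold lower). Injured array 1 had the lowest Mbp of the 8 arrays, and it had the lowest mean of the whole compact myelin list. Pmp22 (-1.67), the dose-sensitive peripheral myelin protein, and the tetraspanin Cd9 (-1.60) completed the list's decreases, and Mobp stood at -0.28 without being called.

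Among genes of the non-compact sheath and of Schwann cell junctions, 10 of 18 fell (median -1.11), and the members split sharply. Drp2 and Prx encode partners that tie the sheath to the surrounding basal lamina. Drp2 read 12.26, 12.27, 12.19 and 12.20 in contralateral and 7.33, 7.35, 7.20 and 7.19 in injured nerves (31.2-fold lower, adjusted p = 1.64e-14). Prx read 11.47, 11.55, 11.35 and 11.49 in contralateral and 6.73, 7.18, 6.65 and 6.62 in injured nerves (25.5-fold lower). The claudin Cldn19 (-4.51), the cadherin Cdh1 (-2.79), the adhesion molecules Mag (-2.44) and Cadm3 (-2.33), the connexin Gjc3 (-1.73) and Sh3tc2 (-1.15), a gene of demyelinating neuropathy, fell as well. General parts of the same junctions were smaller in change or not called, such as the polarity scaffold Mpdz (-0.87), the sarcoglycan Sgcb (-0.45) and the tight junction protein Tjp1 (-0.43).

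At the node of Ranvier, the gap between sheaths where sodium channels cluster, 2 of 11 genes fell. Gldn encodes gliomedin, which Schwann cells use to gather nodal channels, and it read 9.58, 9.99, 9.25 and 8.93 in contralateral and 6.25, 6.17, 6.19 and 5.79 in injured nerves (10.1-fold lower). Nfasc, the neurofascin of node and paranode, fell by 1.41. Nrcam, a partner in the same complex, was higher by 0.78 ± 0.16 (adjusted p = 9.65e-04) and missed the 2-fold minimum.

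Transcription factors of the lineage were called in 16.7% of cases beside 4.66% of all genes. Of 12 measured, Egr2, the master regulator of myelination, fell and Hmga2, an architectural factor of embryonic and dividing cells, rose. Egr2 read 8.91, 9.08, 8.41 and 8.68 in contralateral and 8.0, 7.50, 7.24 and 7.51 in injured nerves (2.31-fold lower, adjusted p = 1.84e-04), and without contralateral arrays 1 and 2 its change was -0.98, under the 2-fold minimum. Hmga2 rose by 2.43 ± 0.19. Sox10 itself changed by 0.29 ± 0.11. Of 8 markers shared by Schwann cells of most states, Scn7a (-3.24), an atypical sodium channel, Plekha4 (-1.71) and Fxyd3 (-1.60), a regulator of the sodium pump, fell and the neuregulin receptor gene Erbb3 rose, while S100b was lower by 0.58 and not called.

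In the list of repair Schwann cell genes 5 of 20 rose and 3 fell (median 0.03). Runx2 read 7.47, 6.95, 7.60 and 6.98 in contralateral and 10.52, 10.77, 10.54 and 10.49 in injured nerves (10.1-fold, adjusted p = 1.02e-11). Ngfr, which binds all neurotrophins, read 7.99, 7.75, 8.37 and 7.82 in contralateral and 10.86, 11.22, 10.87 and 10.98 in injured nerves (8.02-fold). Sox2, a stem cell and immature Schwann cell factor that opposes myelination, read 6.74, 6.85, 6.91 and 6.54 in contralateral and 9.04, 9.47, 9.37 and 9.06 in injured nerves (5.56-fold). Jun showed the smallest of the list's called increases, from 9.38 ± 0.19 to 10.84 ± 0.14 (mean ± SD, n = 4, 2.75-fold). Cryab, a small heat shock protein, went the other way and fell by 2.75 ± 0.10. Gap43, a growth cone protein that denervated Schwann cells make, was higher by 0.59 and the intermediate filament gene Nes by 0.47, and neither reached 2-fold.

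Enzymes that make cholesterol, a major lipid of myelin, fell in nearly every case: 15 of 16 measured genes, with a median of -2.15 and a span from -3.90 to -0.80. Idi1, which makes the branched isoprenoid unit, read 11.28, 11.36, 11.42 and 11.37 in contralateral and 7.67, 7.44, 7.44 and 7.28 in injured nerves (14.9-fold lower, adjusted p = 9.14e-14). Fdft1, squalene synthase, read 11.53, 11.48, 11.38 and 11.53 in contralateral and 8.37, 8.30, 7.94 and 8.20 in injured nerves (9.69-fold lower). In neither gene did the groups come near each other. The decreases ran along the whole route, from Pmvk (-1.23) and Fdps (-2.09) before squalene to Sqle (-1.82), Lss (-2.21), Cyp51 (-2.46), Nsdhl (-2.65), Sc5d (-2.47) and Dhcr7 (-1.30) after it. Mvd, the decarboxylase of the mevalonate steps, was lower by 0.80 and missed the 2-fold minimum. All 15 decreases held in all 16 alternative fits.

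The SREBP system that controls these enzymes changed less at the mRNA level. Insig1, which holds SREBP in the endoplasmic reticulum and is itself an SREBP target, fell by 2.23 ± 0.16. Srebf2, the SREBP most tied to cholesterol genes, was lower by 0.95 and not called. In all 2 of 9 measured genes of the list fell.

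Of 25 genes of fatty acid and sphingolipid synthesis 12 fell and 1 rose (median -0.90). Elovl6, which lengthens palmitate, read 11.76, 11.79, 11.75 and 11.80 in contralateral and 7.44, 7.22, 6.75 and 6.87 in injured nerves (26.1-fold lower). Fa2h (-3.50 ± 0.15), which adds the hydroxyl group of myelin galactolipids, Ugt8 (-1.95), which joins galactose to ceramide, and Aspa (-1.93), which frees acetate from N-acetylaspartate, all fell. Acss2 (-2.16), Acaca (-1.42), Scd (-2.06), Me1 (-1.35) and Acly (-1.10) supply acetyl groups, malonyl groups, desaturation or reducing power and fell too. Elongases and ceramide synthases of wider use changed less, with Elovl1 at -0.64 and Cers2 at -0.69.

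Several of these enzymes are also made by fat cells, and adipocyte markers moved with the comparison. Of 14 adipocyte markers 6 were called lower, Lpl (-1.84), which frees fatty acids from lipoproteins, and Dgat2 (-1.58), which makes triglyceride, the most among them. The list's mean level ran from -0.05 to 0.83 on the contralateral arrays and from -0.69 to -0.05 on the injured arrays. Without contralateral arrays 1 and 2, which held the most adipocyte signal, 2 adipocyte markers and 11 fatty acid and sphingolipid genes were called lower. Elovl6 then changed by -4.71, Scd by -1.38 and Acly by -1.05.

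Cell division genes rose together. Of 29 genes of mitosis and the spindle 26 rose, 89.7% beside 2.48% of all genes, with a median of 1.62, and all 26 stayed called in the 16 alternative fits. Without injured arrays 1 and 4 the count was 25. Their promoters were searched for short elements that such genes are known to share. The cell cycle homology region, TTTGAA, and the CCAAT box are both known from promoters that become active late in the cell cycle. In RefSeq windows of the rat assembly GRCr8, 250 bases before to 50 after each gene's start, 14503 of the 18166 genes had a window, and both strands were searched. The cell cycle homology region was found for 16 of the 24 mitosis genes with a window (66.7%), for 28.0% of all genes that rose, 12.1% of those that fell and 16.7% of all genes with a window. The CCAAT box was found for 16 of the 24 (66.7%), for 42.4% of all genes that rose, 42.6% of those that fell and 39.0% of all genes with a window. It was also found for 10 of the 13 cholesterol synthesis genes with a window (76.9%), a list whose calls were decreases, so it did not mark rising genes alone. The sterol regulatory element, TCACNCCAC, was found for 0 of those 13 and for 1.12% of all genes with a window. With matches that rare, 13 windows are too few to tell this list from all genes. A match is a description of letters and is not a test of binding. The stretches below end at or before the start site, lie on the gene's own strand, and show in capitals the cell cycle homology region and the CCAAT box, the latter also where it reads ATTGG because it lies on the other strand. In Mki67 the pair overlaps. They are printed because they show both elements side by side within a short distance of the start:
Cdk1, cyclin-dependent kinase 1, chr20:19265176-19265271 (GRCr8, plus strand): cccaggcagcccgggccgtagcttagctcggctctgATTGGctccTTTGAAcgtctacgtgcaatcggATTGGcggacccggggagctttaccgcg
Ccnb2, cyclin B2, chr8:79981659-79981746 (GRCr8, minus strand): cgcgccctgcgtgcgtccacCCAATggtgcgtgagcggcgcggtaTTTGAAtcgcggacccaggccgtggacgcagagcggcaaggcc
Kif23, kinesin of the midbody, chr8:71320613-71320708 (GRCr8, minus strand): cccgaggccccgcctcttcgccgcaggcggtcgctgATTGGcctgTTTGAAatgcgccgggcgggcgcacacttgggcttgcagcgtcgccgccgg
Ect2, activator of RhoA at the cleavage furrow, chr2:111966731-111966826 (GRCr8, minus strand): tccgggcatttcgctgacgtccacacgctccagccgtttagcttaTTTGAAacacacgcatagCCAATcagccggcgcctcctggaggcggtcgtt
Mki67, the Ki-67 antigen, chr1:199952660-199952755 (GRCr8, minus strand): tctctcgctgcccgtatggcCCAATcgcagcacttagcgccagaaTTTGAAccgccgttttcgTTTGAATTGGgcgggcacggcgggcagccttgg
Prc1, organiser of the central spindle, chr1:143659418-143659480 (GRCr8, plus strand): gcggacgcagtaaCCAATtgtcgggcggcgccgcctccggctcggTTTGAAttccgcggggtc

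The 6 genes whose windows are shown all rose, but these windows are a choice among those that hold both elements. Cdc20 also has both, with the cell cycle homology region 45 bases before the start, and it was not called. The pair thus did not mark called genes alone. Cdk1, the kinase that starts mitosis, read 6.43, 6.63, 6.65 and 6.91 in contralateral and 8.45, 8.52, 8.84 and 8.39 in injured nerves (3.71-fold, adjusted p = 8.48e-08). Mki67, a mark of cycling cells, read 8.64, 9.13, 9.10 and 9.01 in contralateral and 10.68, 10.51, 10.82 and 10.39 in injured nerves (3.1-fold). Ect2 rose by 1.97 ± 0.13, Prc1 by 1.62 ± 0.14, Kif23 by 1.62 ± 0.16 and Ccnb2 by 1.30 ± 0.09. Contralateral array 1 had the lowest mean of the mitosis list, -1.03, against -0.72 to -0.69 on the other contralateral arrays and 0.73 to 0.86 on the injured arrays. The checkpoint kinase Ttk had the largest change of the list (2.27), followed by Ccnb1, cyclin B1 (2.07), by Ect2 and by the kinetochore genes Nuf2 (1.97) and Ndc80 (1.96). The factor Foxm1, a driver of mitotic genes, was higher by 0.88 and Cdc20 by 0.68, both below 2-fold.

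DNA replication genes rose in fewer cases, 8 of 24 (median 0.85), and 6 of them stayed called in all 16 alternative fits. Rrm2, the inducible subunit of the enzyme that makes deoxyribonucleotides, read 7.83, 7.88, 7.91 and 7.98 in contralateral and 10.18, 10.37, 10.51 and 10.60 in injured nerves (5.73-fold). Mcm6 (1.45) and Mcm5 (1.25), of the replicative helicase, Gins1 (1.39) and Uhrf1 (1.32), which carries DNA methylation through replication, were next. Pcna, the sliding clamp, was higher by 0.91 and Mcm2 by 0.92, just under 2-fold. Of 12 D-type cyclins and cyclin-dependent kinase inhibitors, Ccnd1, the cyclin of early G1, rose by 1.62 ± 0.11, and Cdkn1a, the p21 inhibitor that halts the cycle, rose by 1.32 ± 0.14.

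**Figure D3:**
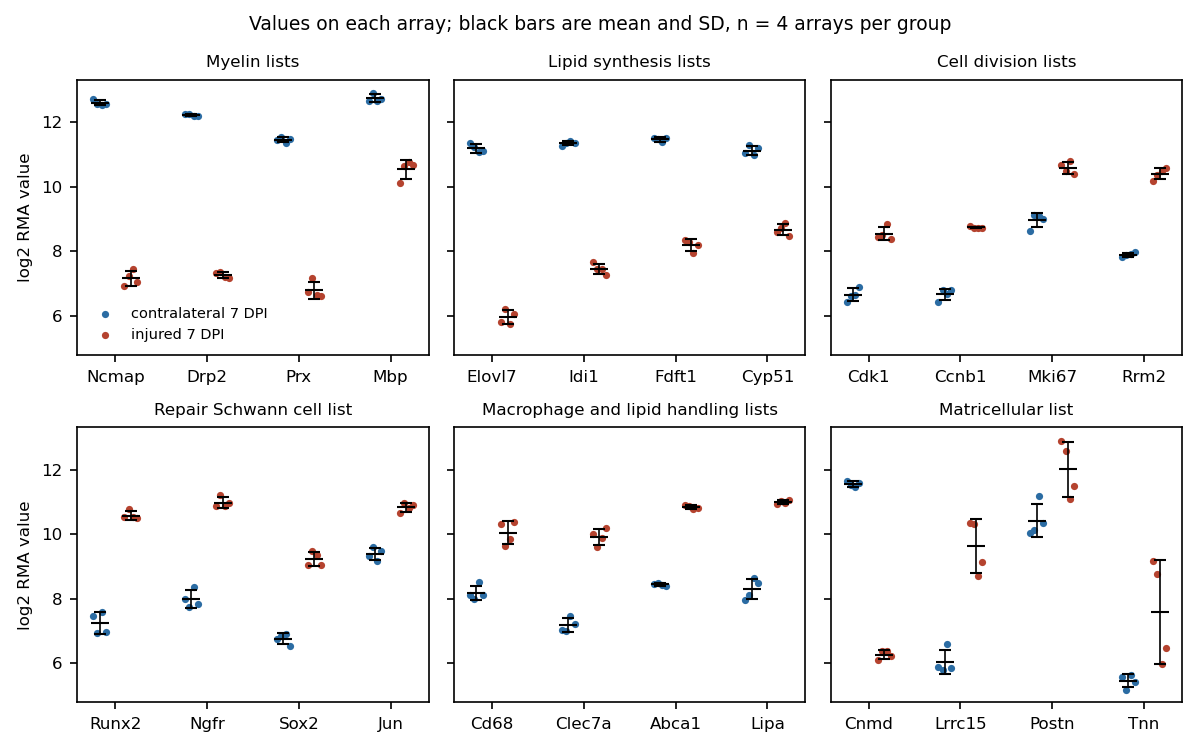
Log2 RMA values of 24 genes on each 7 DPI array (blue contralateral, red injured; black bars show the mean and SD of 4 arrays). The groups do not overlap for the myelin, lipid synthesis, cell division, repair and macrophage genes shown; Postn overlaps, and Lrrc15 and Tnn spread widely among the injured arrays.

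Macrophage and myeloid markers rose in 9 of 23 cases (median 0.91), and their level differed among injured nerves. Their mean ran from 0.15 on injured array 2 to 0.85 on injured array 4, and from -0.67 to -0.27 on the contralateral arrays. Clec7a, the fungal sugar receptor dectin-1, read 7.02, 7.00, 7.46 and 7.23 in contralateral and 10.02, 9.60, 9.88 and 10.18 in injured nerves (6.69-fold). Cd68, a lysosomal protein of phagocytes, read 8.10, 7.98, 8.51 and 8.11 in contralateral and 10.33, 9.64, 9.86 and 10.37 in injured nerves (3.67-fold). Both were higher on every injured array. Mpeg1 (1.40), Trem2 (1.33), the lipid-sensing receptor, Tyrobp (1.29), its signalling partner, and Lyz2 (1.28) also rose. Broad markers were higher without reaching 2-fold, such as Ptprc, CD45 (0.91), Itgam, CD11b (0.82), and Csf1r, the receptor of macrophage growth factor (0.68). Without injured arrays 1 and 4, 7 markers were called higher.

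Genes that take up, ship out or digest lipid rose with them: 9 of 22 rose and 2 fell (median 0.55). Olr1, a receptor for oxidised LDL, rose most, by 2.93 ± 0.16. Lipa, the acid lipase that splits cholesteryl esters in the lysosome, read 7.95, 8.12, 8.63 and 8.48 in contralateral and 10.94, 11.03, 10.96 and 11.06 in injured nerves (6.5-fold). Abca1, which hands cholesterol to lipoproteins, read 8.47, 8.48, 8.42 and 8.39 in contralateral and 10.91, 10.88, 10.79 and 10.80 in injured nerves (5.3-fold) with an SD of 0.04 and 0.06. Pltp (1.78), a phospholipid transfer protein, Msr1 (1.39), a scavenger receptor, and Apoe (1.13), the main lipid carrier of nerve, also rose. Lpl was among the decreases, -1.84 ± 0.23. The macrophage list level given above moved with these genes, and its part in their change was not tested.

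Of the lysosome list 9.38% was called, beside 4.66% of all genes. Of 32 genes 3 rose and 18 were higher at an adjusted p under 0.05 alone (median 0.28). Ctss, a cathepsin that also trims the MHC class II chaperone, rose by 1.51 ± 0.18. Ctsb (0.81), Ctsd (0.72), Galc (0.98), which degrades the galactolipids of myelin, and Glb1 (0.65) were higher by less than 2-fold. In the list of MHC class II presentation Ctss was the only one of 9 genes called, with Cd74, the class II chaperone, at 0.36 and RT1-Da, a class II chain, at 0.68.

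Complement genes rose in 5 of 13 cases, 38.5% beside 2.48% of all genes. C1qb, a chain of the initiating C1q complex, rose by 1.67 ± 0.21, and the count was 3 without contralateral arrays 1 and 2 and 2 without injured arrays 1 and 4. Of 36 chemokines and receptors 5 rose, 13.9% beside the same 2.48%. Ccl2, which draws monocytes, read 8.90, 7.82, 8.27 and 8.49 in contralateral and 10.56, 11.09, 11.20 and 11.66 in injured nerves (6.76-fold), and Ccl6 rose by 1.48. Cxcl10, an interferon-induced chemokine, read 7.08, 6.84, 7.20 and 7.45 in contralateral and 8.32, 8.15, 9.01 and 10.18 in injured nerves (3.42-fold), highest on injured array 4. Cxcl16 was higher by 0.90 and Ccl24, an eotaxin, was lower by 0.71, neither called.

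In the interferon response list 3 of 18 genes rose. The list's mean was higher on injured arrays 1 and 4 than on any contralateral array, it stood just above them on injured array 3 (-0.07, against at most -0.10), and it lay within their range on injured array 2 (-0.43). Gbp2, a guanylate-binding protein, rose by 1.53 ± 0.13. Of 20 genes of interleukin 1, inflammasome and TNF signalling 6 rose, among them Il1rn (1.73), the natural antagonist of the interleukin 1 receptor, Il18 (1.46), Il1r1 (1.13), the signalling receptor, and Tnfrsf12a (1.61), the receptor of TWEAK. The inflammasome sensor Nlrp3 was higher by 0.61 and not called.

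Growth factor families split between rises and falls of single members. In the EGF family 2 of 17 rose and 3 fell (median -0.08). Btc rose 13.5-fold while Hbegf, heparin-binding EGF, read 8.96, 9.61, 8.77 and 9.30 in contralateral and 7.44, 7.66, 6.82 and 6.87 in injured nerves (3.9-fold lower) and Tgfa fell by 1.80 ± 0.13. The called ligands thus changed in opposite directions. Of the receptors Erbb4 fell by 1.83, and Erbb3, the neuregulin receptor of Schwann cells, rose by 1.03 ± 0.14, at the edge of the threshold: its change ranged from 0.93 to 1.13 over the fits that leave out 1 array. Nrg1, neuregulin 1, was higher by 0.62 and not called.

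Of 20 fibroblast growth factors and receptors 2 rose and 2 fell. Fgf5 rose 14-fold and Fgf23, an endocrine member, by 1.46. Fgf1, a broadly acting member, read 11.14, 11.10, 11.18 and 11.16 in contralateral and 7.54, 7.65, 7.60 and 7.25 in injured nerves (12.4-fold lower), and Fgf7, the keratinocyte growth factor made by mesenchymal cells, fell by 2.34 ± 0.18. The main receptors were not called, with Fgfr1 at -0.42 and Fgfr2 at -0.35.

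In the neurotrophin and GDNF families 2 of 15 rose and 3 fell, and all of the called genes were receptors. Gfra1, the GDNF-binding receptor, rose by 1.86 ± 0.09 while Ret, the kinase that transmits its signal, fell by 1.69 ± 0.19. Ngfr rose 8.02-fold while Ntrk3, the receptor of neurotrophin 3, fell by 1.16. The ligand Gdnf itself read 6.34, 5.63, 5.97 and 6.10 in contralateral and 6.91, 6.83, 6.88 and 6.70 in injured nerves, a change of 0.82 ± 0.14 (adjusted p = 2.59e-04) that missed 2-fold.

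In the interleukin 6 family 3 of 17 rose and 3 fell. Cntf, the ciliary neurotrophic factor that myelinating Schwann cells store, read 11.14, 11.06, 11.11 and 10.94 in contralateral and 6.99, 7.21, 7.36 and 7.36 in injured nerves (14.3-fold lower, adjusted p = 1.91e-12). Its receptor subunits Cntfr (-1.12) and Lifr (-1.08) fell too. Lif, leukaemia inhibitory factor, rose by 1.44 ± 0.12 and Osmr, the oncostatin M receptor, by 1.61 ± 0.10. The negative regulator Socs3 was higher by 0.89 and not called.

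Among phosphatases of the Dusp family and Sprouty-type proteins, many of which damp growth factor signals, 1 of 18 rose and 1 fell, and the called members were extreme in both directions. Dusp10 rose 16.3-fold, while Dusp15 read 11.17, 11.29, 10.97 and 11.00 in contralateral and 6.71, 7.01, 6.97 and 6.66 in injured nerves (19.3-fold lower). Dusp6 (0.88) and Dusp5 (0.87), which act on ERK, were higher without reaching 2-fold. Of 17 AP-1 and immediate early factors 2 rose and 1 fell. Fosl1, the FRA-1 partner of Jun, read 6.57, 6.31, 6.58 and 5.44 in contralateral and 8.30, 8.75, 8.76 and 8.34 in injured nerves (4.97-fold). Batf3 was higher by 0.87 and not called.

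TGF-beta, activin and BMP genes were mostly below the fold minimum, with 2 of 35 called, 5.71% and near the 4.66% of all genes. Sostdc1, a secreted antagonist of BMP and Wnt signals, fell by 3.08 ± 0.14 and Bmp6 by 1.13. Tgfb1 was higher by 0.83 and its receptor Tgfbr1 by 0.89, not called. Of 28 Wnt ligands and modulators Sfrp5, a Wnt-binding antagonist, was the only one called (-1.85 ± 0.15), a share of 3.57%.

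Of axon guidance genes, 20% of the semaphorin list and 8.57% of the ephrin and slit list were called, beside 4.66% of all genes. Of 25 semaphorins, neuropilins and plexins 2 rose and 3 fell. Sema3e, which signals through plexin D1, read 6.59, 6.42, 6.67 and 6.40 in contralateral and 9.07, 9.60, 9.57 and 9.67 in injured nerves (7.77-fold), while the transmembrane Sema5a (-2.06), Sema4g (-1.69) and Sema6d (-1.12) fell. Of 35 ephrins, slits, netrins and related genes 3 fell. Lgi1, a secreted ligand of ADAM22-type receptors, read 9.66, 9.80, 9.29 and 9.54 in contralateral and 5.33, 5.49, 6.12 and 5.96 in injured nerves (14.4-fold lower), the largest change of that list. Epha4 was higher by 0.86 and Efna4 by 0.75, not called.

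Calls among matrix genes lay mostly in the matricellular and protease lists, and some of those genes differed widely among injured nerves. Of 35 matricellular and provisional matrix genes 5 rose and 3 fell, 22.9% together beside 4.66% of all genes. The count of increases was 1 without contralateral arrays 1 and 2, and without injured arrays 1 and 4 there were 2 increases and 5 decreases. Lrrc15 read 5.89, 5.80, 6.59 and 5.86 in contralateral and 10.36, 10.33, 8.71 and 9.13 in injured nerves. Tnn, tenascin W, read 5.57, 5.17, 5.64 and 5.43 in contralateral and 9.18, 8.77, 5.96 and 6.46 in injured nerves, so that injured arrays 1 and 2 were more than 2 log2 units above injured arrays 3 and 4. Postn, periostin, read 10.03, 10.14, 11.17 and 10.36 in contralateral and 12.90, 12.57, 11.08 and 11.50 in injured nerves, and contralateral array 3 overlapped the injured range. Postn lost its call in the limma fit with trend and robust fitting (adjusted p = 0.0661). Lrrc15 kept its call without any 1 array. The change of Tnn was 1.91 without injured arrays 1 and 4 and 2.06 without contralateral arrays 1 and 2, and it lost its call in the second case (adjusted p = 0.06). When 1 array was left out, Postn lost its call without contralateral array 1 (log2 change 1.46, adjusted p = 0.0833), contralateral array 2 (log2 change 1.49, adjusted p = 0.0732), contralateral array 4 (log2 change 1.56, adjusted p = 0.0609), injured array 1 (log2 change 1.29, adjusted p = 0.103) and injured array 2 (log2 change 1.40, adjusted p = 0.086).

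Cnmd was the largest decrease of the matricellular list. Sparcl1, a relative of SPARC that is made in vessels and glia, fell by 1.47, and Spp1, osteopontin, read 12.50, 12.53, 12.53 and 12.54 in contralateral and 11.18, 11.25, 11.53 and 11.08 in injured nerves (2.41-fold lower). Among 31 collagen genes 1 rose and 1 fell, 6.45% and near the 4.66% of all genes. Smaller shifts were mostly downward: by an adjusted p under 0.05 alone in limma, 15 collagen genes were lower and 5 higher (median -0.291). Over all genes 13% were lower and 19.1% higher by that rule. Col12a1, which decorates collagen I fibrils, rose by 1.40 ± 0.18 and Col9a1, a cartilage-type chain, fell by 1.40 ± 0.23. The main fibrillar chains were not called, with Col1a1 at -0.47 ± 0.08 and Col1a2 at -0.35 ± 0.09. Of 28 laminin, integrin and basal lamina genes 7.14% were called, also near that share. Itgb8, an activator of latent TGF-beta, rose (1.59) and Itgb4, the laminin receptor chain of myelinating Schwann and perineurial cells, fell (-1.37). Of 34 proteases and inhibitors 5 rose, 14.7% beside 2.48% of all genes, including Plat (1.39), tissue plasminogen activator, its inhibitor Serpine2 (1.39), and Mmp19 (1.39). Mmp12, the macrophage elastase, read 4.88, 4.81, 5.62 and 5.13 in contralateral and 9.93, 5.88, 6.00 and 5.91 in injured nerves. When 1 array was left out, Mmp12 lost its call without contralateral array 1 (log2 change 1.74, adjusted p = 0.0817), contralateral array 2 (log2 change 1.72, adjusted p = 0.0807), contralateral array 4 (log2 change 1.82, adjusted p = 0.0643) and injured array 1 (log2 change 0.82, adjusted p = 0.00273).

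Channel genes fell more often than they rose, 7 against 1 of 28 measured, 28.6% called together beside 4.66% of all genes. Kcna1, a Shaker-type potassium channel, read 10.42, 10.68, 10.13 and 10.39 in contralateral and 6.39, 7.21, 6.86 and 6.51 in injured nerves (12.7-fold lower), and its relative Kcna2 fell by 2.75 ± 0.14. Kcnk1, a two-pore leak channel, fell by 3.89, and Scn3b, a sodium channel beta subunit, rose by 2.69 ± 0.19.

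The few calls in the glycolysis, NRF2 and stress response lists were decreases, 15.8%, 4.35% and 5.26% of members beside 4.66% of all genes. The last 2 shares were near that of all genes, so 1 call gives no direction for either list. At an adjusted p under 0.05 alone in limma, 10 NRF2 list genes were higher and 4 lower (median 0.16). By the same rule 3 stress response genes were higher and 6 lower (median -0.10), and 5 glycolysis genes were higher and 6 lower. Of 19 genes of glycolysis and lactate transport 3 fell, Aldoc (-2.05), the aldolase typical of glia, Pfkm (-1.53) and Ldhb (-1.12), while the lactate transporter gene Slc16a1 stood at -0.89 without a call. One of 23 genes of NRF2 targets, heme and iron fell, Nqo1 (-1.39), a quinone reductase. One of 19 genes of the integrated stress response and serine synthesis fell, Psat1 (-1.25), which makes the serine precursor. Of the 18 genes of the insulin-like growth factor axis Pappa, a protease that frees the factor from its binding proteins, rose by 2.12 ± 0.26 and was one of 2 that rose. Of 25 neuropeptide genes 4 rose, and 2 were called in all 16 alternative fits. Those were Ucn2, which read 6.93, 6.01, 6.05 and 6.21 in contralateral and 9.49, 9.65, 9.33 and 9.80 in injured nerves (9.64-fold), and Edn3, an endothelin (1.34).

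Vessel genes tended downward. Of 22 endothelial and barrier genes 3 fell (median -0.42), 13.6% beside 4.66% of all genes, and 19 were not called. Those that fell were barrier genes: Mfsd2a (-1.53), a lipid transporter that limits transcytosis, the drug pump Abcb1a (-1.29) and the tight junction claudin Cldn5 (-1.21). Other barrier genes of the list, such as Slc2a1, were not called. Cdh5, the cadherin of all endothelium, was lower by 0.41 and Vwf by 0.52, not called. The list's mean ran from -0.04 to 0.36 on the contralateral arrays and from -0.45 to -0.13 on the injured arrays, and these ranges did not overlap. Of 21 vascular growth factor genes 1 was called, 4.76% beside 4.66% of all genes. It was Angpt1, the ligand that steadies vessels, which rose by 1.19 ± 0.11. Of 11 smooth muscle and pericyte markers Myh11, smooth muscle myosin, fell by 1.31. Of 10 perineurial markers 3 fell, of which Itgb4 was called in all 16 alternative fits, and Cldn1, the claudin of the perineurial barrier, was lower by 0.94 without a call.

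Markers of blood cells and of tissue that might be carried along are given for the same arrays. Haemoglobin genes Hba-a1 (-1.56) and Hbb-b1 (-1.45), whose probes may also read near-identical copies, fell, 2 of 3 red blood cell genes, and contralateral array 2 held the most of them (list level 1.22). Of 11 neutrophil markers Mmp8 rose (1.22) and 1 fell, and of 9 mast cell markers 1 rose, the chymase Mcpt1 (1.52 ± 0.47). Mcpt1 went against its list: by an adjusted p under 0.05 alone in limma, 4 mast cell markers were lower and only Mcpt1 higher (median -0.355). It read 3.16, 4.92, 2.89 and 2.54 in contralateral and 5.03, 5.91, 4.32 and 4.32 in injured nerves, so the groups overlapped at low values. When 1 array was left out, Mcpt1 lost its call without contralateral array 1 (log2 change 1.45, adjusted p = 0.0524), contralateral array 3 (log2 change 1.35, adjusted p = 0.0599), contralateral array 4 (log2 change 1.24, adjusted p = 0.0702) and injured array 2 (log2 change 1.18, adjusted p = 0.0742). No gene passed both the limma test and the 2-fold minimum among 11 skeletal muscle, 14 T and natural killer cell, 7 B and plasma cell and 12 mesenchymal cell markers. At an adjusted p under 0.05 alone, 1 skeletal muscle marker was lower, and 6 T and natural killer cell and 2 B and plasma cell markers were higher. By the same rule 3 mesenchymal markers were higher and 5 lower. At an unadjusted p under 0.05 there were 2, 7, 2 and 8 higher or lower in these lists. Hedgehog (9 genes), Notch (14), circadian clock (15) and respiratory chain (27) lists also gave no call, with medians from -0.28 to 0.09. They held 5, 8, 7 and 14 genes at an unadjusted p under 0.05 in limma. At an adjusted p under 0.05 alone, 4 hedgehog genes were lower, and 1 Notch gene was higher and 3 lower. By the same rule 2 clock genes were higher and 3 lower, and 6 respiratory chain genes were higher and 3 lower.

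**Figure D4:**
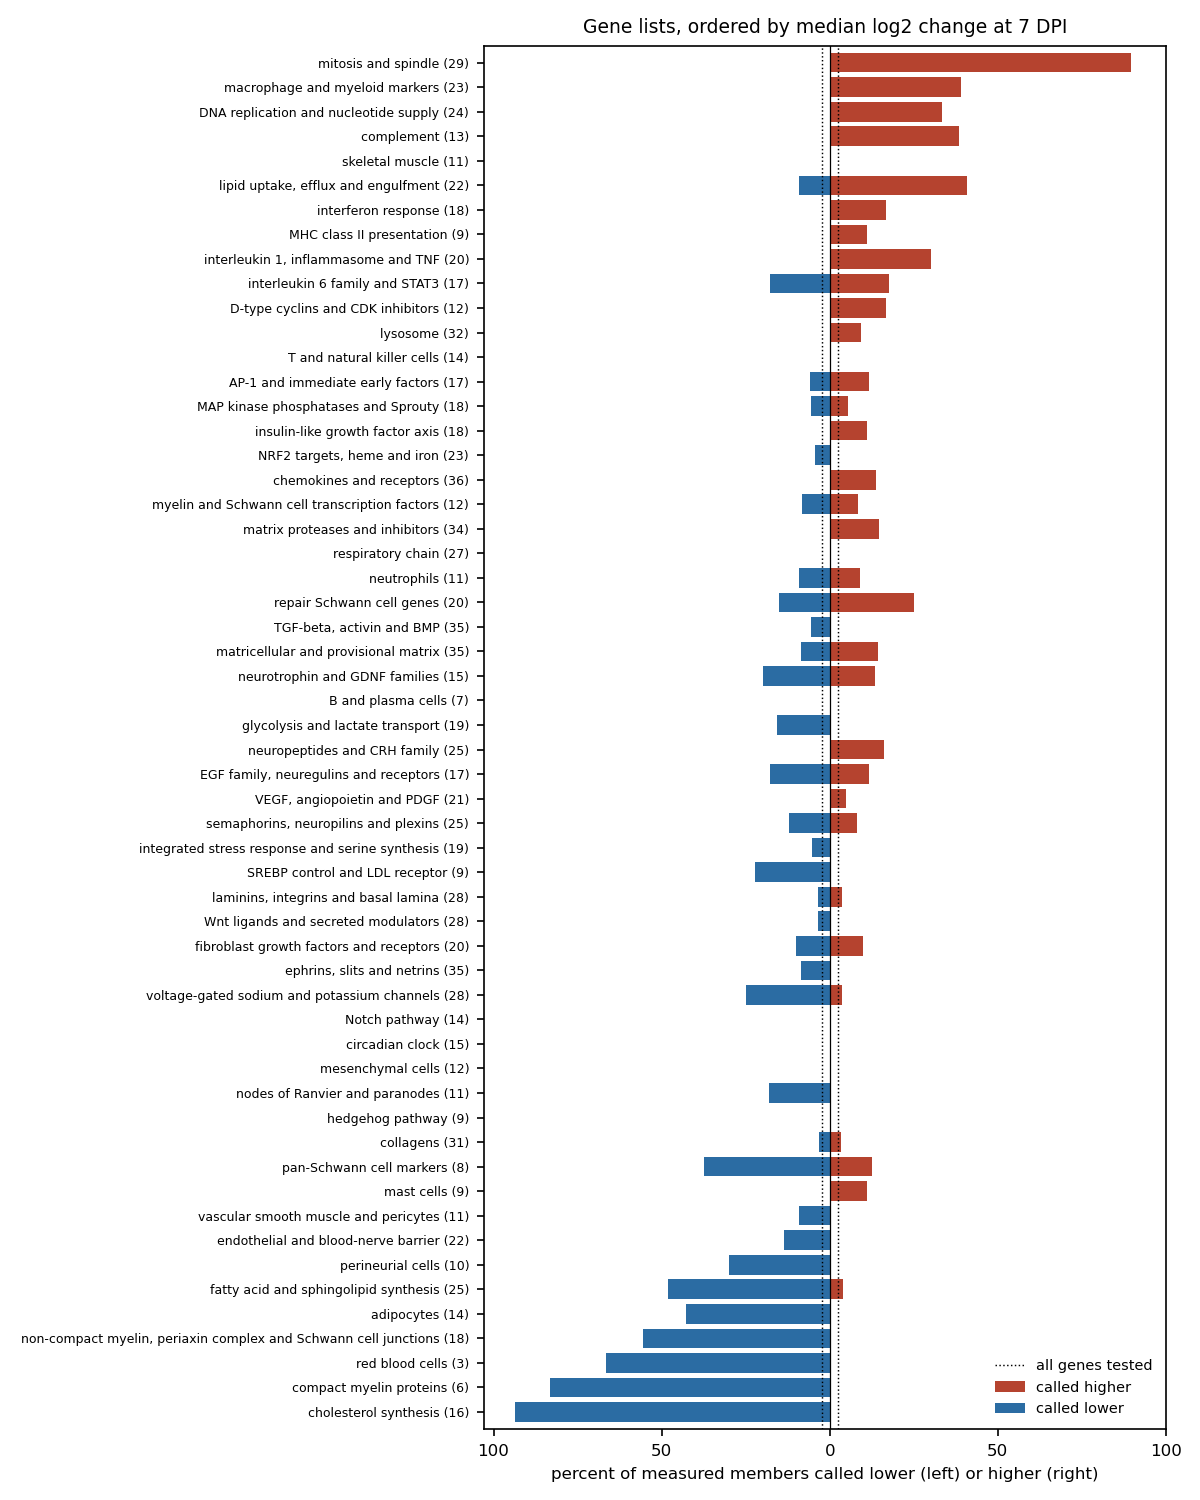
For each of 56 gene lists (measured members in parentheses), the percent of members called higher (red, to the right) and called lower (blue, to the left) at 7 DPI, ordered by median log2 change; dotted lines mark the shares over all genes tested, 2.48% and 2.17%. Mitosis and spindle genes stand at the top and cholesterol synthesis at the bottom.

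The effect of injury was also compared between the days. The 3 DPI effect came from 8 other arrays, 4 per group, with 1055 genes called (5.81%), and the difference of the 2 effects was called for 70 genes (0.385%). Of the 846 genes called at 7 DPI, 842 had the same sign at 3 DPI and 42 differed in effect between the days, 28 with a larger and 14 with a smaller change at 7 DPI. This split leaves out the genes with a called difference that were not called at 7 DPI. Choosing genes by their 7 DPI call favours larger changes at 7 DPI, so the split does not compare the 2 days as a whole. Pmp2 had a log2 change of -1.73 ± 0.15 at 3 DPI and -4.59 ± 0.15 at 7 DPI (difference -2.86 ± 0.22, adjusted p = 2.87e-06). Drp2 went from -2.74 to -4.96 (difference -2.22, adjusted p = 5.65e-07) and Cryab from -0.56 to -2.75 (difference -2.19, adjusted p = 5.65e-07). Cnmd, Mal, Elovl6, Elovl7, Gldn and Scn7a were also lower still at 7 DPI, with differences from -1.95 to -1.12. Spp1 was called at 7 DPI alone: it stood at 0.07 ± 0.09 at 3 DPI, not called, and at -1.27 at 7 DPI (adjusted p of the difference = 2.72e-05).

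Among the increases Pappa (0.27 at 3 DPI, 2.12 at 7 DPI), Sema3e (1.59, 2.96), Tmem196 (1.80, 3.03) and Sox2 (1.28, 2.48) were larger at 7 DPI. Cell division genes were higher at both days, but Mki67 (2.92 at 3 DPI, 1.63 at 7 DPI), Top2a (2.91, 1.81), Ccna2 (2.98, 1.84), Ccnb1 (3.11, 2.07) and Rrm2 (3.74, 2.52) had smaller increases at 7 DPI, each with a called difference. Over the whole mitosis list the median change was 2.44 at 3 DPI and 1.62 at 7 DPI. Ucn2 also rose less at 7 DPI (5.07 at 3 DPI, 3.27 at 7 DPI, adjusted p of the difference = 0.00154).

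**Figure D5:**
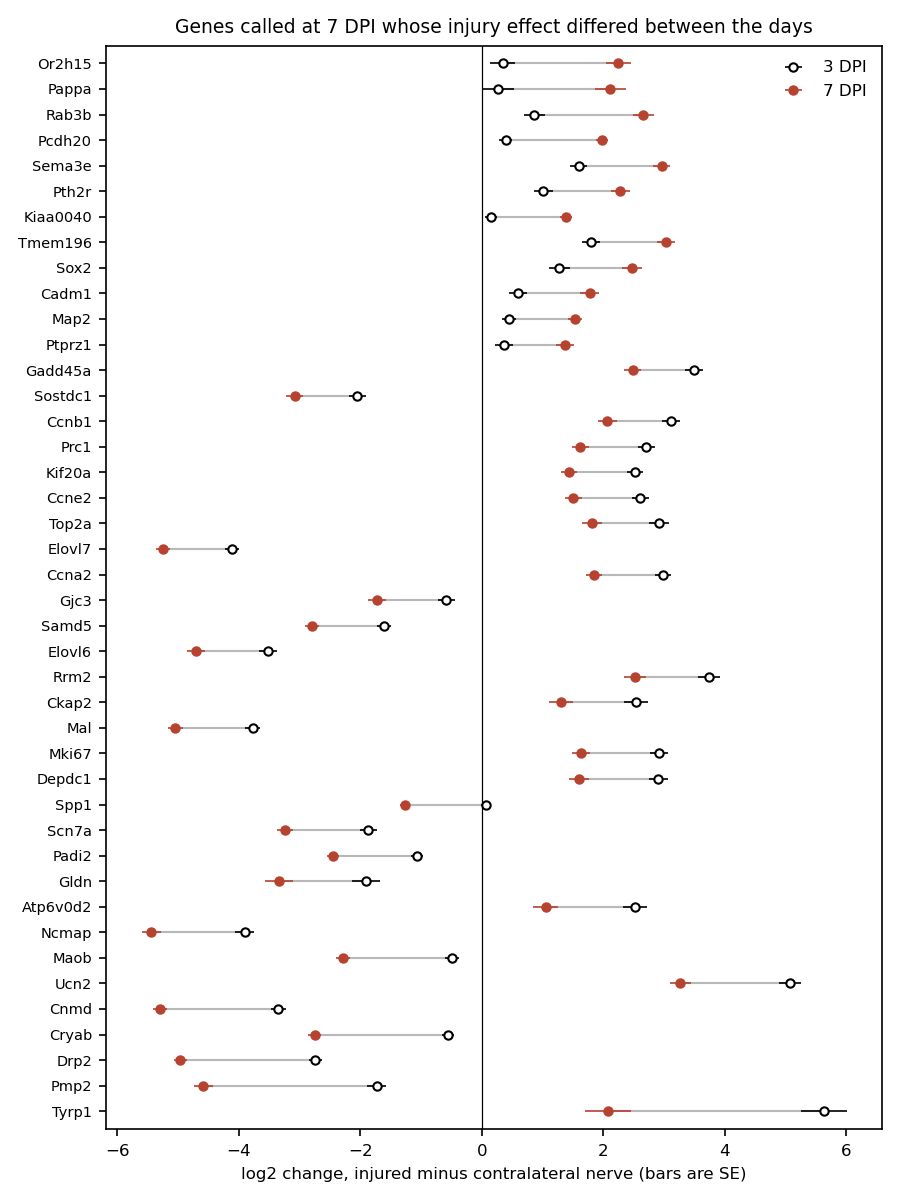
Log2 change (injured minus contralateral) at 3 DPI (open circles) and 7 DPI (red) of the 42 genes called at 7 DPI whose effect differed between the days, with SE bars from the limma fit and grey lines joining the days. Pmp2 goes from -1.73 to -4.59, while mitotic genes such as Mki67 go from 2.92 to 1.63.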

How the data were processed

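Total RNA of rat sciatic nerves was labelled and hybridised by the authors to 1-colour Rat Gene 2.0 ST arrays. The authors deposited log2 values that were background corrected, quantile normalised and summarised by RMA in oligo, with no version and no genome build given in the sources used here. Quantile normalisation hides a change shared by most genes, scanner signals were not used here, and precision is limited by having 4 arrays per group. Of 36685 probe sets, 18511 had 1 annotated symbol, 575 several and 17599 none. Only the first kind was used, and 291 genes with several probe sets kept the one with the highest mean. Gene IDs matched RefSeq GRCr8 for 18059 genes.

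Group means of all 16 arrays were fitted together in limma 3.58.1 (R 4.3.3), with 12 residual and 4.08 prior degrees of freedom. P-values were adjusted over all 18166 genes by the Benjamini-Hochberg method, and the 2-fold minimum is the one the study's methods give for its neuron arrays. Alternatives dropped the fold minimum, removed the 30% dimmest genes, averaged a gene's probe sets, recentred arrays on their medians, used cyclic loess, used a trend with robust fitting, fitted only the 7 DPI arrays, pooled contralateral nerves of both days, weighted arrays, added a replicate block or omitted 1 array at a time. Leaving out contralateral arrays 1 and 2 or injured arrays 1 and 4 was added after seeing the data.

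The comparison and the 56 gene lists, with 1027 of 1151 genes measured, were chosen with earlier results of these data known. Named genes are the 15 largest called changes in each direction with groups that did not overlap, and members of the lists; genes in the other observations were chosen after their values were seen. Tables used pandas 2.3.3 and plots matplotlib 3.10.9.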

Additional observations from a re-analysis of the deposited data

Results flagged for a closer look

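In groups of 4 arrays, a value was picked out when its gap to the nearest other array passed Dixon's critical value as a ratio to the group's range, which chance alone reaches in about 1 in 20 groups. Of 560 groups examined over the named genes and the lists, 26 were picked out. Contralateral array 1 lay above the other arrays of its group for Mmp8 (ratio 0.875) and Tyrp1 (ratio 0.84). Contralateral array 1 lay below the other arrays of its group for Ect2 (ratio 0.845), Kif23 (ratio 0.884), Ret (ratio 0.843), Slc16a1 (ratio 0.897) and the mean of the mitosis and spindle list (ratio 0.901). Contralateral array 2 lay above the other arrays of its group for Nrg1 (ratio 0.88). Contralateral array 3 lay above the other arrays of its group for Lrrc15 (ratio 0.886). Contralateral array 3 lay below the other arrays of its group for Mfsd2a (ratio 0.938) and the mean of the semaphorins, neuropilins and plexins list (ratio 0.902). Contralateral array 4 lay above the other arrays of its group for Rdh10 (ratio 0.909). Injured array 1 lay above the other arrays of its group for Mmp12 (ratio 0.97), Myh11 (ratio 0.868) and the mean of the adipocytes list (ratio 0.869). Injured array 1 lay below the other arrays of its group for S100b (ratio 0.868), Sema3e (ratio 0.833), Sostdc1 (ratio 0.878), the mean of the compact myelin proteins list (ratio 0.868) and the mean of the neuropeptides and CRH family list (ratio 0.841). Injured array 2 lay below the other arrays of its group for Ccna2 (ratio 0.923) and Foxm1 (ratio 0.905). Injured array 3 lay above the other arrays of its group for Epcam (ratio 0.841) and Met (ratio 0.978). Injured array 3 lay below the other arrays of its group for Il1r1 (ratio 0.878) and the mean of the endothelial and blood-nerve barrier list (ratio 0.924). The widest of these gaps was in Mmp12, which read 9.93 on injured array 1 and 5.88 to 6.00 on the other injured arrays. Injured array 1 was also the array with the skeletal muscle markers, and whether these go together was not tested.

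The injury effect differed between the days, by the limma test of the difference at an adjusted p under 0.05 and at least 2-fold, for 27 named genes, given here with the log2 effect at 7 DPI minus that at 3 DPI. The increase was larger at 7 DPI for Pappa (1.85), Sema3e (1.37), Sox2 (1.20) and Tmem196 (1.24). The increase was smaller at 7 DPI for Ccna2 (-1.13), Ccnb1 (-1.05), Gadd45a (-1.01), Mki67 (-1.28), Prc1 (-1.08), Rrm2 (-1.22), Top2a (-1.10), Tyrp1 (-3.54) and Ucn2 (-1.81). The level lay further below the contralateral nerve at 7 DPI for Cnmd (-1.95), Cryab (-2.19), Drp2 (-2.22), Elovl6 (-1.18), Elovl7 (-1.12), Gjc3 (-1.14), Gldn (-1.43), Mal (-1.28), Maob (-1.80), Ncmap (-1.54), Pmp2 (-2.86), Scn7a (-1.37), Sostdc1 (-1.03) and Spp1 (-1.34).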

How the results depend on the processing

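The counts of 451 higher and 395 lower genes stayed within 1.5 times of these values under every alternative except dropping the fold minimum, which by its construction adds the small changes and gave 3477 higher and 2356 lower genes. The other planned settings gave 418 to 512 higher and 384 to 437 lower genes, the extremes coming from cyclic loess (418 and 437) and from pooling contralateral nerves of both days (512). Leaving out 1 array gave 421 to 482 higher and 378 to 405 lower genes. Leaving out contralateral arrays 1 and 2, a choice made after seeing the data, gave 395 higher and 392 lower genes, and leaving out injured arrays 1 and 4 gave 398 and 427. Among other lists with at least 2 calls in a direction, counts moved by over 1.5 times in these cases: the first moved the insulin-like growth factor axis (increases) and lipid uptake (decreases) from 2 to 1, and the second moved chemokines and receptors from 5 to 3, semaphorins from 2 to 1 (increases) and the ephrin and slit list from 3 to 1 (decreases). Centring and loess moved the median gene by -0.029 and -0.0099 on the log2 scale.

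None of the 224 named genes changed sign in any of these fits. Apart from the fit without a fold minimum, 4 called genes lost their call in at least 1 planned fit (Erbb3, Mcpt1, Mmp12 and Postn) and 8 genes just under 2-fold gained one. Same-numbered contralateral and injured arrays deviated together with correlations of -0.081, 0.166, 0.086 and 0.037, so the numbers were not taken as pairs. A fit of the 7 DPI arrays alone called 448 higher and 395 lower genes, and adding the replicate number as a block to it gave 449 and 398, 842 of them called in both, and changed the call of no named gene. The 4 arrays per group limit the precision, and signal over background was not used here.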

Other observations

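Genes outside the lists and the largest changes, chosen after their values were seen, are added here as single genes. Among those that rose were Met, the receptor of hepatocyte growth factor (2.36 ± 0.14), Epcam, an epithelial adhesion protein (1.71 ± 0.17), and Cd24, a glycosylphosphatidylinositol-anchored surface protein (2.21 ± 0.14). Crabp2, which carries retinoic acid to the nucleus, rose by 1.84 and Rdh10, which makes retinal from retinol, by 1.64. Gadd45a, a growth arrest and DNA damage gene, rose by 2.48 and Lgals3, galectin 3, by 1.64. Tyrp1, an enzyme of melanin synthesis, read 7.25, 5.73, 5.54 and 5.44 in contralateral and 7.60, 8.61, 7.57 and 8.51 in injured nerves, and its log2 change was 5.63 at 3 DPI and 2.08 at 7 DPI.

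Among those that fell were Mt3, a metallothionein of brain (-3.69 ± 0.10), Snap25, a synaptic fusion protein (-1.52), Sncg, gamma-synuclein (-2.12), Gabra3, a GABA receptor subunit (-3.19), and Ermn, an oligodendrocyte cytoskeletal protein (-2.83). Maob, a mitochondrial amine oxidase, fell by 2.28 at 7 DPI after a change of -0.49 at 3 DPI. The cells these genes came from were not measured.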
